A study of Mus musculus with 24 samples.

Results

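The liver builds and trims the sugar chains of most plasma proteins, and the transferases that branch, extend and cap those chains were followed here as 1 group of genes. A gene was a member if its symbol in the platform's probe annotation began with St3gal, St6gal, St8sia, Fut, B4galt, B3galt, B3gnt, Mgat, Galnt or Gcnt and went on with a letter or digit, a rule that uses no measured value. It took 86 of the 24704 genes tested, of which 84 code for proteins. The other two were Fut4-ps1, a pseudogene, and St8sia3os, a non-coding RNA named after its neighbour St8sia3. By enzyme family the members were 20 sialyltransferases, 19 enzymes that start O-glycans with N-acetylgalactosamine (GalNAc), 11 N-glycan branching enzymes, 9 β1,3-N-acetylglucosaminyltransferases, 8 fucosyltransferases, 7 β1,4-galactosyltransferases, 5 β1,3-galactosyltransferases and 5 β1,6-branching enzymes.

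Whole-liver RNA of male and female mice was measured on 24 arrays, 3 in each of 8 groups. The groups crossed genotype (HepCAV1wt or HepCAV1ko), diet (control diet or a methionine- and choline-deficient diet, MCD, a model of fatty liver disease) and sex. HepCAV1ko mice carried a homozygous floxed Cav1 gene, which codes for caveolin-1, and 1 copy of a Cre recombinase driven by the albumin promoter, so the deletion was aimed at hepatocytes while endothelial and other cells of the liver kept the gene. All mice ate chow until 8 weeks of age, then 1 of the diets for 4 weeks, and RNA was taken at 12 weeks. HepCAV1wt mice were Cre-negative littermates with the same floxed gene, so both genotypes carried the floxed allele. The arrays of a group are numbered, but the labels do not tie each number to a mouse of its own, and the spread behind every p-value may therefore be technical in part.

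Values are log2 expression, and a difference of 1 is a doubling of the signal. Arrays of 1 group correlated with r from 0.981 to 0.991 over all genes, and 24 of 24 matched their labelled sex. The Cav1 values are no check of the labels, since whole liver also holds cells outside the deletion and where the probes lie relative to the floxed part is not known here. Males on the control diet had Cav1 at 4.42 ± 0.55 (SD, n = 3) in HepCAV1wt and 3.76 ± 0.25 in HepCAV1ko, and averaged over sex and diet the knockout arrays were lower by 0.31 (adjusted p = 0.957). The knockout difference was -0.65 in control-fed males and -0.45 in control-fed females. On MCD it was only -0.046 in males and -0.085 in females, and none of these passed. The knockout effect on MCD minus that on the control diet was 0.49 ± 0.24 (SE) and did not pass. Of the 8 hepatocyte markers (Alb, Ttr and others), 8 lay above the background of the array, taken as the 95th percentile of the levels of 1365 odorant and vomeronasal receptor genes (3.44). By the same measure 47 members had a group mean above background and 39 had none.

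N-glycans are attached in the endoplasmic reticulum, branched in the Golgi by Mgat enzymes, extended with galactose by B4galt and B3galt enzymes and closed with sialic acid or fucose. Fut8 alone places the fucose on the innermost sugar of an N-glycan, the core fucose, while the St3gal and St6gal enzymes put sialic acid on the outermost galactose, where it hides that galactose from the asialoglycoprotein receptor of hepatocytes. The Galnt enzymes begin the other large class, O-glycans, by placing GalNAc on serine or threonine.

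The promoters of the 3 members with the largest sex differences, and of B4galt1, 1 of the members that fell on the MCD diet, are shown first. RefSeq promoter windows (GRCm38.p6, from 250 bases before to 50 after a transcription start) were at hand for 63 of the 86 members, 89 windows in all, and are written 5′ to 3′ on the strand of the gene. Capitals mark matches, on either strand, to 4 short motifs that were searched for: the STAT5 element TTCNNNGAA, the antioxidant response element TGACNNNGC, the ATF4 and CHOP composite element TGATGNAA and the HNF4 motif AGTCCA. St3gal6 has 2 listed starts, an AT-rich one (38.7% G and C, 3 CpG) and a GC-rich one (64.7%, 20 CpG), on either side of the median of all 32851 windows (52.7% and 7 CpG), and neither window holds a match. The window shown for Fut8 is the richest in G and C of its 4 (76.3%, 39 CpG) and holds none either, while another of the 4 (chr12:77388614-77388913, not shown) holds TGATGNAA. Of the 2 B3galt1 windows, the one shown holds TGACNNNGC and the other none. The single B4galt1 window holds TTCNNNGAA. A window of St6galnac6, the member that fell most on MCD, holds no match (chr2:32599459-32599758, not shown). None of the windows shown holds more than 1 match, so no matches overlap.
St3gal6, chr16:58524204-58524503, minus strand: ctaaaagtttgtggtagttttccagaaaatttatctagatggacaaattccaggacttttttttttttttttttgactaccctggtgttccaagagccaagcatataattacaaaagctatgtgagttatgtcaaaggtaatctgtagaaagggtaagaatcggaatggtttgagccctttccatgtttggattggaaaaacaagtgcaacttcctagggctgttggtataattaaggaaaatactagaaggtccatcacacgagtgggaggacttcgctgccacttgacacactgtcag
St3gal6, chr16:58523377-58523676, minus strand: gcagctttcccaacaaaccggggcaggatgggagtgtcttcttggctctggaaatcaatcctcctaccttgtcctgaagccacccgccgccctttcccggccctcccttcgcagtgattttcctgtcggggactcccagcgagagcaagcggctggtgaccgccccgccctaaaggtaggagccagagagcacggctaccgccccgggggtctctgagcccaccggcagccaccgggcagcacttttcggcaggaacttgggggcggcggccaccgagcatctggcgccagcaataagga
Fut8, chr12:77238489-77238788, plus strand: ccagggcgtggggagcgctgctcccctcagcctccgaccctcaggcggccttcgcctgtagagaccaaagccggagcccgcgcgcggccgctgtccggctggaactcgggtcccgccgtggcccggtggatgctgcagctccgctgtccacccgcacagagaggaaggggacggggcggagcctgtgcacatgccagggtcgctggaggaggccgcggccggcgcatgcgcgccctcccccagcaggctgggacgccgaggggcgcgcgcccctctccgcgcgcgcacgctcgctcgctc
B3galt1, chr2:67565439-67565738, plus strand: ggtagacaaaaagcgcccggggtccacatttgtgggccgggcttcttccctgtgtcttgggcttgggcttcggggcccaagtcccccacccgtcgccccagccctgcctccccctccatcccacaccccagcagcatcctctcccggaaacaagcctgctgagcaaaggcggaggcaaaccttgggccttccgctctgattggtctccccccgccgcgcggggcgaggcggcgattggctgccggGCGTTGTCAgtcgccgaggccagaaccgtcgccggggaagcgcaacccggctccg
B4galt1, chr4:40853935-40854234, minus strand: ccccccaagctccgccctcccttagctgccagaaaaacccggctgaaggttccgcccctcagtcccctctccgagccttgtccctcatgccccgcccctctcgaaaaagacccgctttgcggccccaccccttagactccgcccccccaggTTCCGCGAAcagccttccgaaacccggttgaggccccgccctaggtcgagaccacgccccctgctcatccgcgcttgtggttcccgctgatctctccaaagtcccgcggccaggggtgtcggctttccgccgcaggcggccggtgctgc
Over all windows TTCNNNGAA occurred in 8.30%, against 7 of the members' 89 windows (7.87%). TGACNNNGC occurred in 12.4% against 13 (14.6%), TGATGNAA in 3.97% against 3 (3.37%) and AGTCCA in 14.1% against 10 (11.2%). These shares describe letters in the windows and nothing about the factors.

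The largest averaged difference of any member was between the sexes. Averaged over genotype and diet, 5 members differed between males and females at an adjusted p under 0.05 (5.81%), where 3.67% of all genes did. Only 1 was higher in males (1.68% of all genes were) and 4 were lower in males (2.00% of all genes were). The median difference of the 86 members was -0.024, beside 0.0066 over all genes.

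St3gal6, which caps galactose with α2,3-linked sialic acid, showed the widest gap. Its 12 female arrays ran from 4.85 to 6.55 with a median of 5.80, and its 12 male arrays from 3.95 to 4.91 with a median of 4.44. Only 1 male array, of an MCD-fed HepCAV1ko mouse at 4.91, lay above the lowest female array. Males were 2.43-fold lower (log2 difference -1.28 ± 0.095 SE, adjusted p = 4.22e-09).

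In control-fed HepCAV1wt livers St3gal6 read 4.53, 4.73 and 4.41 in males and 5.99, 5.86 and 5.37 in females (difference -1.18, adjusted p = 0.00101). In control-fed HepCAV1ko livers it read 4.40, 4.21 and 4.56 in males and 6.33, 6.55 and 6.54 in females (-2.08, adjusted p = 2.64e-07). These knockout females held the highest St3gal6 levels of the series. On MCD the HepCAV1wt males were at 4.45, 3.95 and 4.22 and the females at 5.34, 5.06 and 4.85 (-0.88, adjusted p = 0.0628). The MCD-fed HepCAV1ko males were at 4.42, 4.91 and 4.67 and the females at 5.28, 5.74 and 5.95 (-0.99, adjusted p = 0.0253). The groups of males and females did not overlap in any of the 4 comparisons, and 2 of them on the control diet and 1 on MCD passed the test. Beside these counts, 1.27% of all genes differed by sex in control-fed HepCAV1wt, 1.48% in control-fed HepCAV1ko, 0.215% in MCD-fed HepCAV1wt and 0.202% in MCD-fed HepCAV1ko. The call in MCD-fed HepCAV1ko was lost without HepCAV1ko MCD female 2 (adjusted p = 0.129), female 3 (0.163), male 1 (0.184) or male 3 (0.0729).

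Fut8, the core fucosyltransferase, was lower in males by 0.75 ± 0.081 (1.68-fold, adjusted p = 2.02e-06). Female arrays ran from 6.13 to 6.77 with a median of 6.51 and male arrays from 5.28 to 6.55 with a median of 5.66. On the control diet the sexes did not overlap. The HepCAV1wt males read 5.54, 5.49 and 5.93 against 6.46, 6.45 and 6.35 in females (-0.77, adjusted p = 0.0147). The HepCAV1ko males read 5.28, 5.38 and 5.38 against 6.18, 6.77 and 6.72 (-1.21, adjusted p = 7.74e-05). On MCD the gap stood in HepCAV1wt, with males at 5.58, 5.73 and 5.88 and females at 6.75, 6.52 and 6.63 (-0.90, adjusted p = 0.0144).

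In MCD-fed HepCAV1ko the Fut8 levels of males (6.10, 6.16 and 6.55) and females (6.50, 6.56 and 6.13) overlapped, with a difference of -0.13 ± 0.16 (adjusted p = 1). Whether this group's gap differed from the other three was not tested as such. The call in control-fed HepCAV1wt was lost without HepCAV1wt control female 1 (adjusted p = 0.0531), female 2 (0.056), male 1 (0.0779) or male 2 (0.0992). The call in MCD-fed HepCAV1wt was lost without HepCAV1wt MCD female 1 (0.0985), male 1 (0.0799) or male 2 (0.0651).

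B3galt1, a β1,3-galactosyltransferase that makes type 1 chains, ran the other way. Male arrays spanned 6.55 to 8.65 with a median of 7.43 and female arrays 6.08 to 7.54 with a median of 6.50. Males were 1.84-fold higher (0.88 ± 0.18, adjusted p = 0.00614), the differences within the 4 combinations of genotype and diet were 0.65, 0.69, 1.26 and 0.94, and none of these passed alone.

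Galnt2, an O-glycan starting enzyme whose substrates include plasma lipoprotein regulators, was lower in males by 0.28 ± 0.064 (adjusted p = 0.0136). Its male arrays ran from 6.63 to 7.05 and its female arrays from 6.78 to 7.58. It passed alone in control-fed HepCAV1ko, with males at 6.88, 6.84 and 7.05 and females at 7.18, 7.55 and 7.58 (-0.52, adjusted p = 0.042), a call lost when any 1 of 12 of the 24 arrays was left out (adjusted p up to 0.197). B3gnt3, which extends core 1 O-glycans, was lower in males by 0.41 ± 0.11 (adjusted p = 0.0414), but leaving out any 1 of 18 of the 24 arrays ended this call (adjusted p up to 0.0819).

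**Figure D1:**
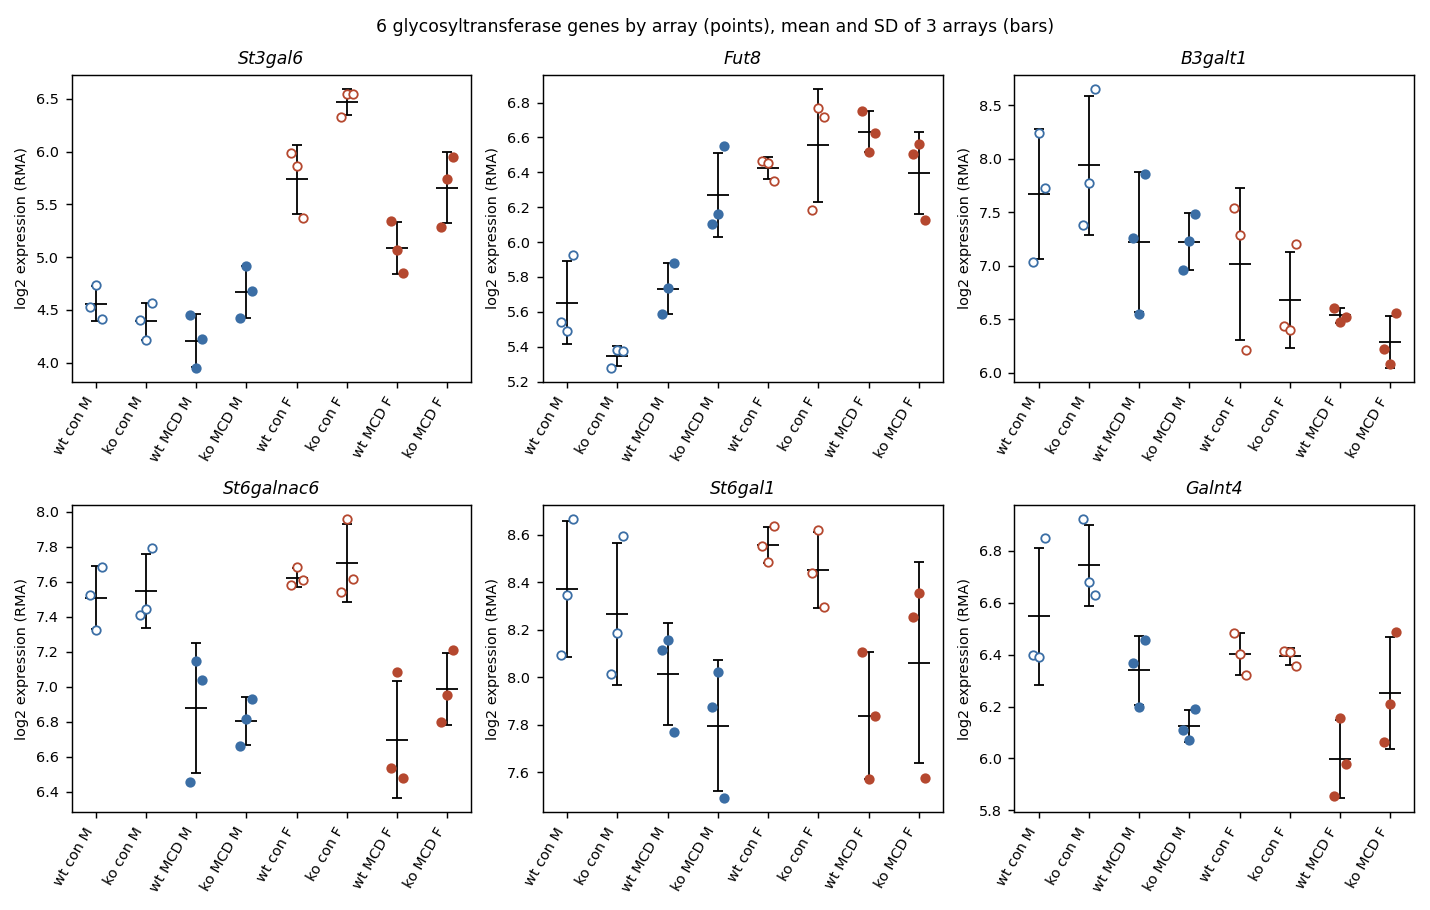
Log2 expression of 6 members on each array (points, filled for MCD, blue for males, red for females), with the mean and SD of the 3 arrays of each group (black bars), by genotype (wt, ko), diet (con, MCD) and sex (M, F). St3gal6 sits higher in females, as does Fut8 except in MCD-fed HepCAV1ko, where the sexes overlap. B3galt1 sits higher in males, and all 12 MCD arrays of St6galnac6 sit below all 12 control arrays.

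**Figure D2:**
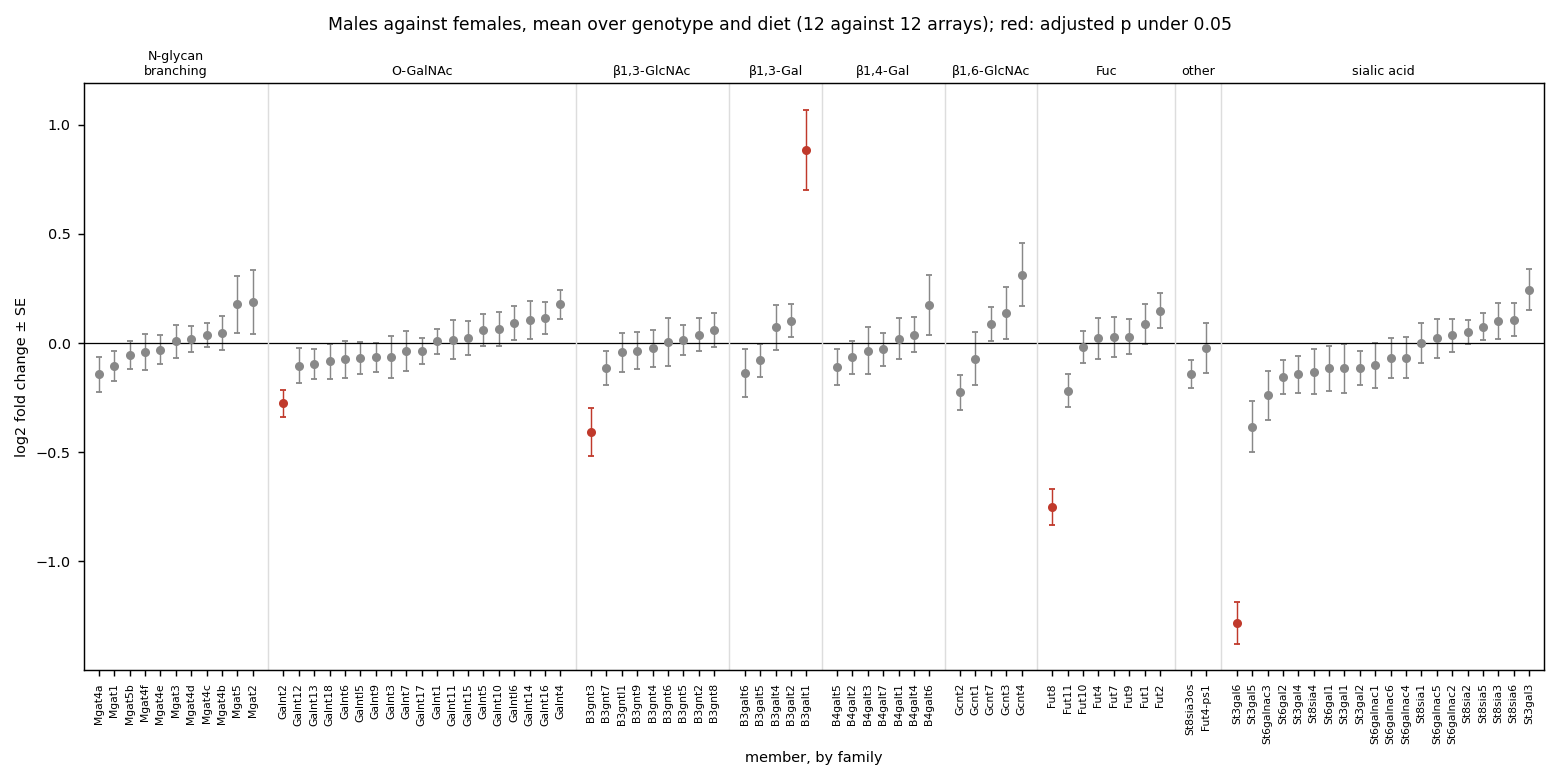
Difference between males and females (log2, vertical axis) of each of the 86 members with its standard error, averaged over genotype and diet, ordered within families. Red marks the 5 members with an adjusted p under 0.05, with St3gal6 at -1.28 and B3galt1 at 0.88 at the ends.

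Markers of other liver cells also differed by sex, in small numbers: 2 of 8 stellate cell markers, 1 of 8 endothelial markers, 1 of 7 Kupffer cell markers and 1 of 6 T cell markers were lower in males, and none of the 8 hepatocyte markers passed. The summed stellate level ran from 10.3 to 11.6 in males and 10.8 to 11.7 in females, and the endothelial one from 10.4 to 11.3 and 10.8 to 11.3. Their part in the sex differences was not tested. In whole liver, fewer cells of a type and less RNA per cell cannot be told apart, here and in all that follows.

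The MCD diet moved members in both directions, to about the extent it moved genes at large. Averaged over genotype and sex, 15 of the 86 members changed (17.4%) where 19.2% of all genes did. Of these, 8 rose (9.79% of all genes rose) and 7 fell (9.39% of all genes fell). With ordinary variances 4 rose and 7 fell, and with only genes above the median level 5 rose and 6 fell. The members' median was 0.0058 and that of all genes -0.015. The 3 sialyltransferases that fell, St6galnac6, St6gal1 and St3gal6, add sialic acid to different acceptors or in different linkages, and 1 sialyltransferase, St8sia4, rose.

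St6galnac6, which adds α2,6-linked sialic acid to GalNAc of gangliosides, changed most. Its 12 control arrays ran from 7.32 to 7.96 with a median of 7.59, and its 12 MCD arrays from 6.46 to 7.21 with a median of 6.88, with no overlap. It fell 1.69-fold (-0.75 ± 0.092, adjusted p = 2.99e-06).

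In HepCAV1wt males St6galnac6 went from 7.52, 7.32 and 7.68 to 6.46, 7.15 and 7.04 (-0.63, adjusted p = 0.0554). In HepCAV1wt females it went from 7.58, 7.68 and 7.61 to 6.53, 7.08 and 6.48 (-0.93, adjusted p = 0.00405). The fall was -0.74 in HepCAV1ko males (adjusted p = 0.0158) and -0.72 in HepCAV1ko females (0.0498). The standard error of each was 0.18, and the test of the difference between the sexes gave 0.14 ± 0.18 (adjusted p = 0.912). The HepCAV1ko male call was lost without HepCAV1ko control male 3 (0.0914) or MCD male 1 (0.082), and the HepCAV1ko female call when any 1 of 18 arrays was left out (up to 0.242).

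St6gal1, the enzyme behind most α2,6-sialylation of plasma glycoproteins, fell 1.40-fold (-0.48 ± 0.10, adjusted p = 0.00149). Its control arrays spanned 8.01 to 8.67 with a median of 8.46 and its MCD arrays 7.49 to 8.36 with a median of 7.95. The change was negative in all 4 combinations of genotype and sex, from -0.36 to -0.72, and passed alone in HepCAV1wt females (-0.72, adjusted p = 0.0452), a call lost when any 1 of 12 arrays was left out (up to 0.184).

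St3gal6 fell by 0.39 on MCD (± 0.095, adjusted p = 0.00546). In HepCAV1wt and HepCAV1ko females it changed by -0.65 (adjusted p = 0.0495) and -0.82 (0.027), and in HepCAV1wt and HepCAV1ko males by -0.35 (0.374) and 0.28 (0.48). The diet effect in males minus that in females was 0.70 ± 0.19, the member with the smallest p in this test (0.00142 unadjusted, 0.145 adjusted). The call in HepCAV1wt females was lost when any 1 of 17 arrays was left out (up to 0.214), and that in HepCAV1ko females without HepCAV1ko control female 2 (0.112) or 3 (0.103), or MCD female 1 (0.202) or 2 (0.0871).

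Fut8 rose on MCD by 0.26 ± 0.081 (1.20-fold, adjusted p = 0.0241), with control arrays from 5.28 to 6.77 and MCD arrays from 5.58 to 6.75. It passed alone in HepCAV1ko males, from 5.28, 5.38 and 5.38 to 6.10, 6.16 and 6.55 (0.93 ± 0.16, adjusted p = 0.000933), a call that stood with any 1 of the 24 arrays left out. HepCAV1wt males changed by 0.08 (0.866), HepCAV1wt females by 0.21 (0.581) and HepCAV1ko females by -0.16 (0.83). The diet effect in males minus that in females was 0.48 ± 0.16 (adjusted p = 0.305), and the knockout effect on MCD minus that on the control diet 0.24 ± 0.16 (adjusted p = 1), so a difference between the groups in this rise did not pass either test.

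B4galt6, which makes lactosylceramide, rose most, 1.45-fold (0.54 ± 0.14, adjusted p = 0.00667), from a control range of 3.55 to 4.39 to an MCD range of 3.68 to 5.05. It passed alone in HepCAV1ko males (0.93, adjusted p = 0.0433), a call lost when any 1 of 9 arrays was left out (up to 0.154). B4galt1, the main enzyme that adds galactose to N-glycan branches, fell 1.24-fold (-0.31 ± 0.092, adjusted p = 0.0209), from a control range of 8.00 to 8.90 to an MCD range of 7.97 to 8.56. The other 5 of the 7 β1,4-galactosyltransferases did not pass, among them B4galt5, which also makes lactosylceramide (-0.025, adjusted p = 0.888), and B4galt3, which acts on glycoproteins (0.22, 0.184).

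Of the O-glycan starting enzymes, Galnt4 fell from 6.32 to 6.92 (lowest to highest control array) to 5.86 to 6.49 on MCD (-0.34 ± 0.068, adjusted p = 0.000767). It passed alone in HepCAV1ko males, where 6.92, 6.68 and 6.63 became 6.11, 6.07 and 6.19 (-0.62, adjusted p = 0.00645). Galnt18 fell by 0.24 (adjusted p = 0.0449), with a lowest group mean (3.41) under background. Galnt11 rose by 0.26 (0.041) and Galnt7, which acts on peptides that already carry GalNAc, by 0.27 (0.0412). The other 15 of the 19 did not pass.

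Among branching enzymes Mgat3, which adds the bisecting N-acetylglucosamine, rose by 0.30 ± 0.076 (adjusted p = 0.00729), with control arrays from 3.09 to 3.65 and MCD arrays from 3.27 to 3.92, and all 4 control group means (3.20 to 3.37) lay under the background of 3.44. Mgat4a, which starts a further branch, rose by 0.24 (0.0426) at levels under background in every group (highest group mean 2.92). Mgat2, which starts the second antenna, had group means between 7.61 and 7.95 and did not pass. B3galt6, which builds the linker of proteoglycans, rose by 0.35 ± 0.11 (0.0276), from a control range of 3.16 to 4.09 to an MCD range of 3.63 to 4.46. Its lowest group mean (3.35) lay under background. St8sia4, a polysialic acid synthase, rose by 0.34 ± 0.10 (0.025), from 2.52 to 3.20 in control arrays to 2.76 to 4.00 in MCD arrays, near background. The non-coding St8sia3os fell by 0.19 (0.0413), under background in every group (highest group mean 3.06).

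Members just outside the threshold began with B3galt1 (-0.51 ± 0.18, adjusted p = 0.0581). Of the 15 calls, 8 (St6galnac6, Galnt4, St6gal1, St3gal6, B4galt6, Mgat3, B4galt1 and Fut8) stood with any 1 of the 24 arrays left out. St8sia4 was lost without HepCAV1wt MCD female 3 (adjusted p = 0.0512) or HepCAV1wt MCD male 2 (0.0503). B3galt6 was lost without any 1 of 8 arrays, Galnt11 without any 1 of 14, and Galnt7, Galnt18, Mgat4a and St8sia3os without any 1 of 15 each (adjusted p up to 0.0914).

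**Figure D3:**
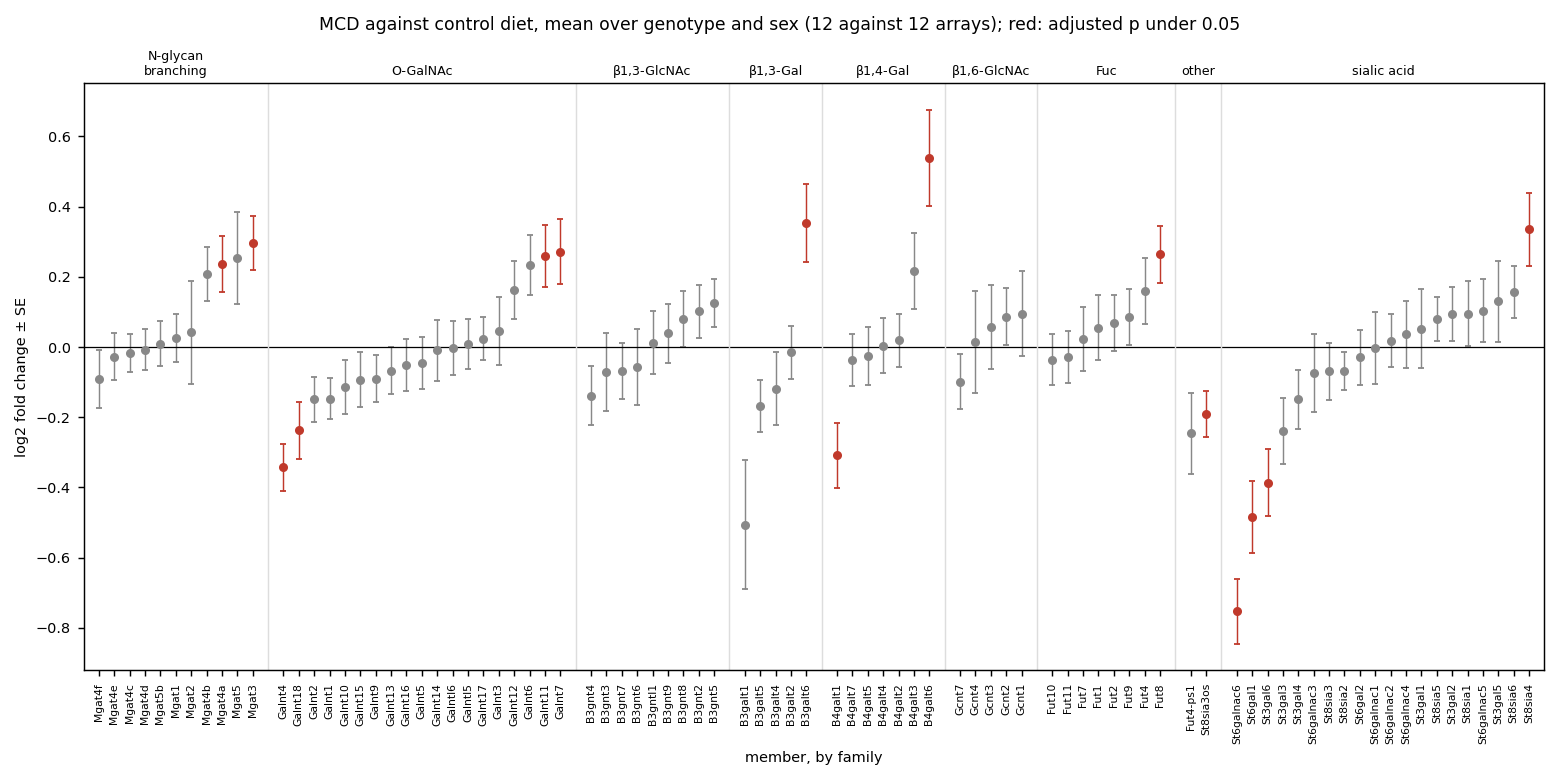
Difference between MCD and control diet (log2, vertical axis) of each of the 86 members with its standard error, averaged over genotype and sex, ordered within families. Red marks the 15 members with an adjusted p under 0.05, from St6galnac6 at -0.75 to B4galt6 at 0.54.

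Within single groups fewer members passed. In HepCAV1wt females 3 did (4.92% of all genes did), all sialyltransferases that fell. In HepCAV1ko males 4 did (6.64%), Fut8 and B4galt6 up and Galnt4 and St6galnac6 down. In HepCAV1ko females 2 did (1.64%), St3gal6 and St6galnac6, both down. In HepCAV1wt males none passed by limma (4.37%), 6 had an unadjusted p under 0.05 (16.5% of all genes had), and by an unmoderated gene-by-gene test 7 did, with 0 after adjustment. No member passed the test of the diet effect between the sexes (0.534%), and 10 had an unadjusted p under 0.05 (8.48%). After St3gal6, Fut7 (-0.58) and the core 2 enzyme Gcnt4 (-0.90) had the smallest p, with adjusted p of 0.249 and 0.263, and all group means of Fut7 (2.70 to 3.10) lay under background.

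Markers of other cells moved with the diet as well. Of 7 macrophage markers 5 rose and none fell, the summed level going from 8.46 to 9.34 in control arrays to 8.96 to 10.1 in MCD arrays. Of 6 markers of lipid-associated macrophages 5 rose and 1 fell (7.63 to 8.38 against 8.53 to 11.4), and of 8 stellate cell markers 6 rose (10.3 to 11.1 against 11.1 to 11.7). Of 8 hepatocyte markers 2 rose and 1 fell (15.8 to 15.9 against 15.9 to 16.0). Of 8 endothelial markers 2 rose (Lyve1 by 0.68 and Eng by 0.33, summed level 10.8 to 11.3 against 10.4 to 11.3). Of 7 Kupffer cell markers 2 rose and 1, Timd4, fell (10.03 to 10.87 against 10.21 to 10.89). Of 7 cholangiocyte markers 1, Sox9, rose by 0.50 (6.22 to 6.75 against 6.45 to 7.05), and of 6 neutrophil markers 1, S100a8, by 0.31 (5.67 to 5.99 against 5.64 to 6.35). S100a8 had a mean over all arrays of 1.95, under background, and only 3 of the 6 neutrophil markers had a group mean above it. None of the 6 T cell markers (5.87 to 6.44 against 5.86 to 6.42) or the 4 B cell markers (5.83 to 6.66 against 5.63 to 6.48) passed. The monocyte receptor Ccr2, which rose by 1.18, had a mean over all arrays of 3.40, just under background, though its highest group mean lay above it. The part of these cells in the rises of St8sia4, B4galt6, Fut8 and the other members was not tested.

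Genes that feed and surround the transferases were counted beside the shares of all genes that rose (9.79%) and fell (9.39%). Of 26 genes that build the N-glycan precursor and hand it to proteins, 8 rose and 2 fell on MCD, among them the oligosaccharyltransferase subunits Stt3a (0.37) and Stt3b (0.31). Of 25 genes of nucleotide sugar synthesis, 9 rose and 4 fell. Ugdh, which makes UDP-glucuronic acid, rose by 1.24 (adjusted p = 1.22e-07) and Pgm3, on the way to UDP-N-acetylglucosamine, by 1.23 (1.52e-09), and of the genes of sialic acid synthesis Nans, the synthase, rose by 0.48 (0.00129) and Gne, the first enzyme, fell by 0.20 (0.0331). Slc35a1, the carrier that brings activated sialic acid into the Golgi, fell by 0.33 (0.0079), and 2 of the 10 Golgi carriers rose.

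Of 14 genes that trim N-glycans, 3 rose and 4 fell. Of 12 that remove sugars, 2 rose and 3 fell, with the lysosomal β-galactosidase Glb1 down by 1.26 (5.1e-11) and the sialidase Neu1 up by 0.23 (0.015). Of 15 receptors of glycans, 6 rose and none fell, led by the galectins Lgals3 (1.65) and Lgals1 (1.57), which macrophages and stellate cells also make, and of 15 genes of O-glycan cores and related transfer 1 rose and 2 fell. By sex, 1.68% of all genes were higher in males and 2.00% lower. Of the 26 precursor genes 4 were higher in males and 0 lower, and of the 14 trimming genes 2 and 0. Of the 25 nucleotide sugar genes 2 were higher and 0 lower, and of the 10 Golgi carriers 1 and 1. Of the 15 O-glycan core genes 1 was higher and 1 lower, of the 15 receptors 0 and 1, and of the 12 genes that remove sugars 0 and 0. Slc35a1 was lower in males by 0.31 (0.0396).

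The knockout was a factor of the study beside diet and sex, and no member passed for it. Averaged over sex and diet, limma called 0 of the 86 (0.00405% of all genes, a single gene), and 6 had an unadjusted p under 0.05 (4.99% of all genes had). The members' median was 0.025 and that of all genes -0.00051. The highest rank went to St3gal6, at 0.40 ± 0.095 (unadjusted p = 0.000375, adjusted p = 0.869), followed by Galnt13 (0.20) and St6galnac2 (0.18), both with an adjusted p of 0.957, Galnt13 under background in every group. St3gal6 values above were higher in HepCAV1ko than in HepCAV1wt by group mean in 3 of the 4 combinations of sex and diet.

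In control-fed females 0 members passed (0% of all genes), and 7 had an unadjusted p under 0.05 (5.57%), by the gene-by-gene test 5. The first were St3gal6 (0.73 ± 0.19, adjusted p = 0.726), Galnt2 (0.43, 0.738) and Galntl6 (-0.47, 0.787, under background in every group). Galnt2 read 6.81, 7.11 and 7.10 in HepCAV1wt and 7.18, 7.55 and 7.58 in HepCAV1ko. In control-fed males 0 passed (0.00405%), 1 had an unadjusted p under 0.05 (5.48%), by the gene-by-gene test 3, and B3gnt2, which lengthens polylactosamine chains, led at -0.36 (0.858), before Galnt17 (-0.24, under background in every group) and Galnt2 (0.24).

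In MCD-fed males 0 passed (0%), 2 had an unadjusted p under 0.05 (4.23%), by the gene-by-gene test 6. Fut8 led at 0.54 ± 0.16, with HepCAV1wt at 5.58, 5.73 and 5.88 and HepCAV1ko at 6.10, 6.16 and 6.55 (unadjusted p = 0.0033, adjusted p = 1). St3gal6 and the core 2 enzyme Gcnt1 followed, at 0.47 each, Gcnt1 under background in every group. In MCD-fed females 0 passed (0%), 9 had an unadjusted p under 0.05 (3.92%), by the gene-by-gene test 7, with St3gal6 (0.57), B3gnt3 (-0.59) and St8sia4 (-0.53) first, all at an adjusted p of 0.999.

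No member passed the test of the knockout effect between diets (0 of 86 by limma, 0% of all genes, and 3 with an unadjusted p under 0.05, 3.30% of all genes), nor between the sexes (0, 0%, and 3, 4.69%). Between diets Galnt2 ranked first (-0.37 ± 0.13, unadjusted p = 0.0082), before Fut10 and Galnt17. Between the sexes St3gal6 did (-0.51 ± 0.19, unadjusted p = 0.0148), before St8sia2 and Galnt17. All of these had an adjusted p of 1.

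The study's own table of glycan genes names 13 members, a list it chose on these arrays, so their knockout differences are not independent evidence. In control-fed males they ran from -0.39 (St8sia4) to 0.24 (Galnt2), and in control-fed females from -0.55 (St6galnac1, under background in every group) to 0.73 (St3gal6). In MCD-fed males they ran from -0.24 (Galntl6) to 0.54 (Fut8), and in MCD-fed females from -0.59 (B3gnt3) to 0.57 (St3gal6). Fut8 itself was at -0.31, 0.13, 0.54 and -0.23 in these groups, in that order, and Galnt3 at -0.23, 0.47, 0.28 and 0.03. Both changed sign between groups, and none of the 13 had an adjusted p under 0.05 in any group. The study defined significance as p under 0.05 and names no adjustment for the arrays, a threshold unlike the one used here. In MCD-fed males the unadjusted limma p was under 0.05 for Fut8 (0.0033) and St3gal6 (0.0234), and for no other of the 13. Others of the 13 met it in other groups. In control-fed males B3gnt2 did, the only 1 of the 86 members. St3gal6, Galnt2 and Galntl6 led the 7 members under 0.05 in control-fed females. In MCD-fed females St3gal6, B3gnt3 and St8sia4 led 9 such members.

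**Figure D4:**
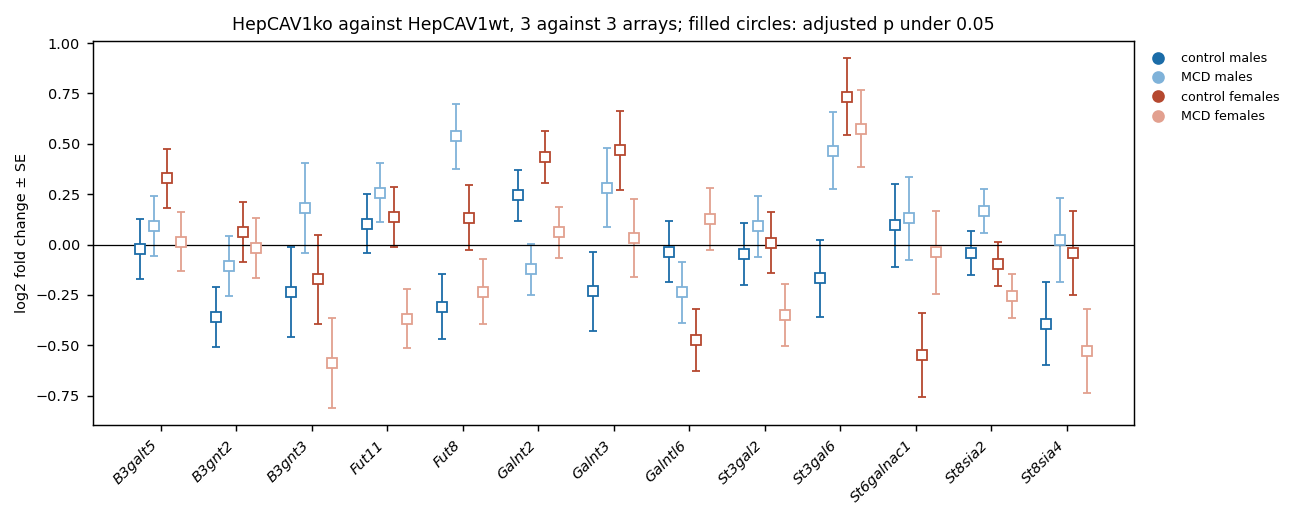
Difference between HepCAV1ko and HepCAV1wt (log2, vertical axis) of the 13 members in the study's table of glycan genes, with standard errors, in control-fed and MCD-fed males and females (3 against 3 arrays each). No marker is filled, since none had an adjusted p under 0.05, and St3gal6 lies at -0.17 in control-fed males and at 0.73 in control-fed females.

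St3gal5, which makes the ganglioside GM3, had group means between 9.26 and 10.2, B3gnt2 between 5.30 and 5.67 and Gcnt4 between 5.09 and 6.06, and none passed in an averaged comparison. In all, 18 members passed by diet or sex and 68 passed in no averaged comparison.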

How the data were processed

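Total RNA of whole liver was hybridised by the authors to Affymetrix MoGene 2.0 ST arrays. The deposited values are log2 expression after RMA (background correction, quantile normalization, summary per gene), named per the labels' processing notes, on 25428 features from 1.19 to 13.5. Probe levels of different genes are not comparable. They were still used across genes to pick names, set the background, sum marker levels and keep genes above the median level. A summed level therefore leans on the brightest markers of its list. The probe annotation gave 24705 features 1 symbol and left 723 unnamed, and for a symbol with several features the brighter was kept. limma 3.58.1 in R 4.3.3 fitted a mean per group to all 24704 genes and 24 arrays (16 residual and 5.35 prior degrees of freedom). P-values of each of the 18 contrasts were adjusted over the whole table (Benjamini-Hochberg), with a threshold of 0.05. The fit was tested on simulated data. Named were Fut8, all members called in an averaged contrast, the first 3 by p per uncalled contrast, the brightest probe set per family and the study's 13. Members, lists and motifs were chosen with earlier results of these data known. Marker and pathway lists were searched by symbol, and summed levels are log2 of summed linear values. Array precision rests on 3 arrays per group, and no scan batch was given in the sources used here. A plain t-test per gene was an alternative, since the study's statistics name that test in general though not for the arrays. Promoters are RefSeq's, for GRCm38.p6.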

Additional observations from a re-analysis of the deposited data

How the results depend on the processing

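Counts of members are given in the order named. Under the replicate block (same-numbered arrays as a block), 2 members passed for diet in HepCAV1wt males and 1 in HepCAV1wt females, and the block changed no other count by over 1.5 times. Deviations of same-numbered arrays correlated from -0.138 to 0.251 (84 pairs, median 0.0326, 16 of them over 0.1), against a median of -0.00539 for other numbers. Whether the numbers pair arrays or mark a batch was not settled by these values, and the main fit used no block. With array weights, 1 passed for diet in HepCAV1wt females, 4 in HepCAV1ko females and 2 for sex in MCD-fed HepCAV1wt. With ordinary variances, 1, 1 and 0 passed for diet in HepCAV1wt females, in HepCAV1ko females and for sex in MCD-fed HepCAV1ko. With a trended, robust prior 1 passed for diet in HepCAV1wt males, and with only genes above the median level 1 did and 2 for sex in MCD-fed HepCAV1wt. From the 6 arrays alone, 1 and 0 passed for diet in HepCAV1wt and HepCAV1ko females, and 1, 0 and 0 for sex in control-fed HepCAV1wt, MCD-fed HepCAV1wt and MCD-fed HepCAV1ko. Centring each array on its median left every count within 1.5 times. The plain t-test with adjustment gave 0 in all diet and sex comparisons within groups. Without adjustment, 24 members passed for diet and 13 for sex on average, 6, 12, 10 and 9 for diet in HepCAV1wt males and females and HepCAV1ko males and females, and 7, 9, 14 and 6 for sex in control-fed and MCD-fed HepCAV1wt and control-fed and MCD-fed HepCAV1ko. For the knockout, 6 passed without adjustment on average, 1 and 7 in control-fed males and females, 2 and 9 in MCD-fed ones, and 10, 3 and 3 in the tests of diet by sex, knockout by diet and knockout by sex. Leaving out 1 array gave 9 to 16 for diet on average, 0 to 2, 1 to 4, 2 to 4 and 0 to 4 in the 4 groups in the order above, 4 to 6 for sex on average and 1 to 3, 0 to 2, 2 to 4 and 0 to 1 within groups, and 0 to 0 for every knockout and interaction test. No named value changed sign where it was called. The cause of these moves was not tested. With 3 arrays per group and 39 members not above background, a missing call says little about those members.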
